A study of Mus musculus with 18 samples.

Results

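The aminoacyl-tRNA synthetases are the enzymes that load each tRNA with its amino acid. All protein-coding genes of the mouse family were taken by symbol: 21 genes for synthetases of the cytosol and 17 for synthetases of the mitochondria, 38 of the 45706 genes in the count files. The rule read gene symbols only, but the family was chosen with earlier results of these data known. The mRNAs were measured by RNA sequencing of whole kidneys from male C57BL/6 mice of 10 to 12 weeks, removed after bilateral ischemia of 22.5 min and reperfusion of 12 h. *Myc* KO mice (n = 5) carried floxed *Myc* (F/F) with Pax8rtTA and TetOCre, and *Myc* control mice (n = 5) carried floxed *Myc* with Pax8rtTA and without TetOCre. *Cxcl12* KO mice (n = 5) and *Cxcl12* control mice (n = 3) carried floxed *Cxcl12* with the same transgenes in the same arrangement. All mice, controls included, had received doxycycline for 14 days and no doxycycline for the next 1 week. Pax8rtTA switches on the recombinase in tubule cells only, so that vessels, glomeruli, stroma and leukocytes of a KO kidney keep the floxed gene. No kidney without ischemia is among the samples, and every level below is a level in an injured kidney.

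A synthetase joins an amino acid to the end of its tRNA at the cost of ATP, and the ribosome then reads the loaded tRNA. The cytosol and the mitochondria use separate tRNAs, and most amino acids have a synthetase gene for each compartment. *Gars* and *Kars* make the enzyme for both compartments from the same gene, and they are counted here as cytosolic. *Eprs* carries the glutamate and the proline enzyme in the same protein. The family falls into class I and class II, which have unrelated catalytic folds. The products of 8 of the cytosolic genes sit with 3 scaffold proteins in the multisynthetase complex. Mitochondria have no glutaminyl-tRNA synthetase of their own: *Ears2* loads glutamate on the tRNA for glutamine, and an amidotransferase then converts it. MYC is a transcription factor that binds the E-box CACGTG and is known to act on genes of ribosome production and protein synthesis. Transcription factor ATF4 raises many cytosolic synthetase genes when amino acids are short.

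The reads counted on genes numbered 12918220 to 29749500 per kidney. All 38 genes passed the filter on low counts in every comparison, and the lowest count of any of them was 46 reads, for *Pars2*. In 6 kidneys fewer than 5% of reads were unmapped (at most 4.63%, against at least 5.28% in the others), namely *Myc* control 1 and 3, *Myc* KO 3 and 5, and *Cxcl12* KO 1 and 2. These 6 kidneys also had the most reads on genes, at least 22437067, against at most 18006784 in the others. The split by unmapped reads is therefore also a split by sequencing depth. No label gives a sequencing batch, although the study's methods name a batch calibration. Results are therefore also given inside and outside these 6 kidneys. No kidneys of a group were so alike that they could be repeats of the same library: in each of 33 pairs their counts differed beyond the noise of sampling. The study's methods describe the mice as littermates, but no label names the litter or the mouse of a kidney. Each kidney was taken as that of a separate mouse. The p-values set the difference between groups against the spread between these kidneys, and shared litters are not taken into account. Both target genes were lower in their own KO kidneys, measured as CPM, the reads of a gene scaled to a common library size. *Myc* had 94.9 ± 14.5 CPM (SD, n = 5) in *Myc* control and 31.0 ± 3.95 CPM (SD, n = 5) in *Myc* KO kidneys, and its log2 fold change was -1.61 (SE, the standard error, 0.12; edgeR adjusted p = 8.82e-05). *Cxcl12* had 53.5 ± 7.92 CPM (SD, n = 3) in *Cxcl12* control and 32.3 ± 6.07 CPM (SD, n = 5) in *Cxcl12* KO kidneys, with a log2 fold change of -0.73 (SE 0.15, edgeR adjusted p = 0.094). In both, every KO kidney lay below every control kidney of its cohort.

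Levels were compared between genes as CPM per kb of annotated exon. The glycine enzyme *Gars* (62.0 CPM per kb as the mean of 18 kidneys, range 47.6 to 79.2) and the asparagine enzyme *Nars* (61.0, range 45.0 to 73.8) had the highest levels, and their ranges over kidneys overlapped almost wholly. The serine enzyme *Sars* followed with 54.2 CPM per kb. The 16 highest levels were all those of cytosolic synthetases. The highest mitochondrial level was 13.5 CPM per kb for the isoleucine enzyme *Iars2*, with a range over kidneys of 11.8 to 15.6, and the lowest level of the family was 1.65 CPM per kb for the proline enzyme *Pars2*, with a range of 1.02 to 2.13. Among cytosolic genes the lowest were *Tarsl2*, a relative of the threonine enzyme *Tars*, with 2.60 CPM per kb, and the cysteine enzyme *Cars*, with 8.99 CPM per kb. *Tars* itself had 17.1 CPM per kb. Exon lengths are those of all annotated transcripts together, so genes with long rare exons are placed too low.

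Deletion of *Myc* was accompanied by lower synthetase mRNA, in the cytosolic and in the mitochondrial genes. In *Myc* KO against *Myc* control kidneys, 10 of the 38 genes fell with an edgeR adjusted p under 0.05 and 0 rose. Over all 14936 genes tested, 1.29% fell and 0.355% rose by the same rule. Among genes with a mean CPM at least that of the lowest synthetase, 1.66% fell. The log2 fold change was below 0 for 37 of the 38 genes, against 50.1% of all genes, and the unadjusted p was under 0.05 for 26 of the 38, against 21.9% of all genes. Other tests gave other counts, with DESeq2 calling 19 of the 38 genes lower against 4.35% of all genes and limma-voom 8 of the 38 against 1.09%. The median log2 fold change of the family was -0.30 and that of all genes tested was -0.00083. For 15 of the 38 genes every *Myc* KO kidney lay below every *Myc* control kidney, which held for 3.92% of all genes. Since the RNA is from whole kidneys, fewer cells that use these genes and less mRNA per cell cannot be told apart.

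The CPM of the 38 genes, summed per kidney, was 3547, 3322, 3042, 3387 and 3039 in *Myc* control 1 to 5. In *Myc* KO 1 to 5 the sum was 2948, 2760, 2626, 2655 and 2489. The groups did not overlap, and the highest KO kidney, *Myc* KO 1, was close to the lowest control kidneys, *Myc* control 3 and 5. In *Myc* KO 1 to 5, in turn, 30, 36, 38, 35 and 38 of the 38 genes lay below their *Myc* control mean. The median deviation of the 38 genes from the *Myc* control mean ran from -0.37 to -0.21 log2 units over the KO kidneys and from -0.12 to 0.099 over the control kidneys.

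**Figure D1:**
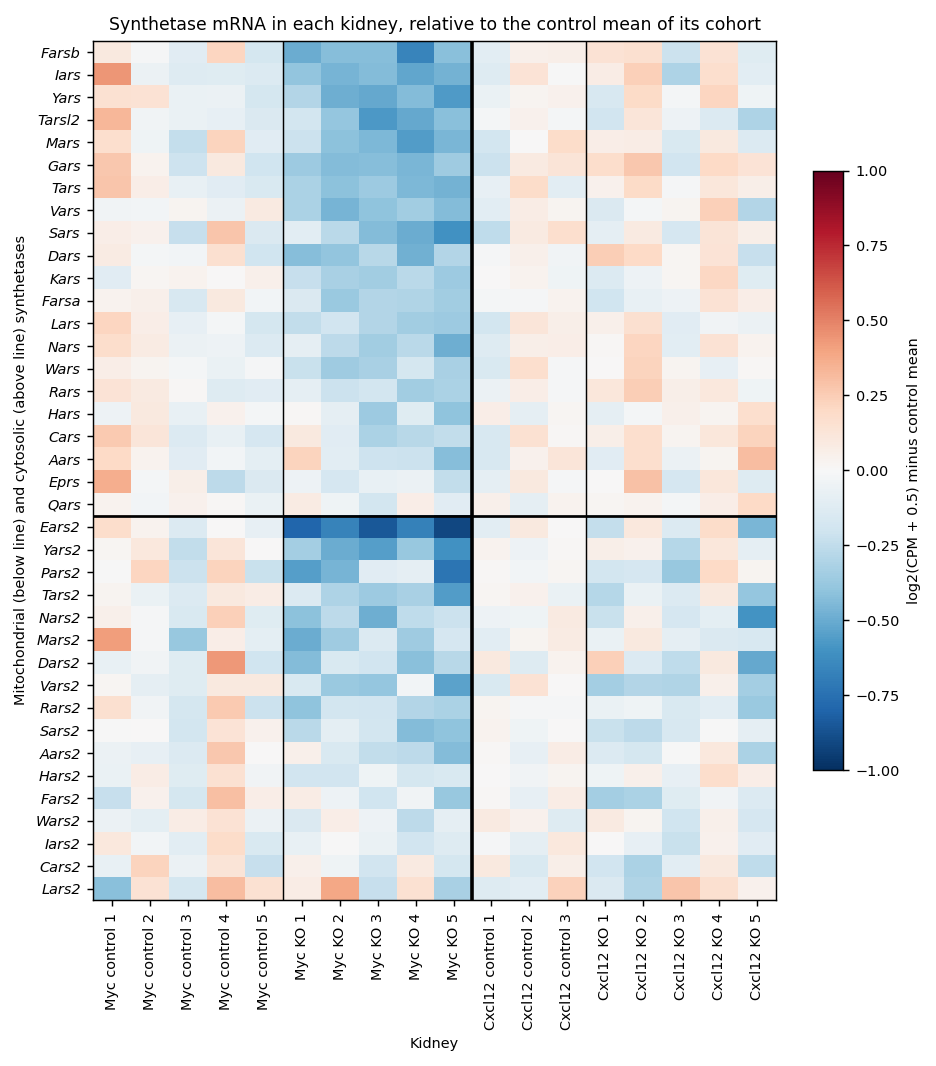
Heat map with 1 row per synthetase gene and 1 column per kidney. Colour gives log2(CPM + 0.5) minus the mean of the control kidneys of the same cohort, blue for lower and red for higher, with cytosolic genes above the black line and mitochondrial genes below it. Blue fills nearly all rows of the 5 *Myc* KO kidneys, while the *Cxcl12* KO kidneys are mixed, with 8 to 30 of the 38 genes below the *Cxcl12* control mean.

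The largest log2 fold change and the smallest p belonged to *Ears2*, the mitochondrial glutamate enzyme (ENSMUSG00000030871, chromosome 7 of GRCm38 from 122037213 to 122067263). *Ears2* had 19.6, 17.8, 15.7, 17.4 and 16.4 CPM in *Myc* control 1 to 5 and 9.81, 10.7, 9.42, 10.7 and 8.99 CPM in *Myc* KO 1 to 5. All KO kidneys lay well below the lowest control kidney. The log2 fold change was -0.81 (SE 0.095, edgeR adjusted p = 0.0043). In *Cxcl12* control kidneys *Ears2* had 19.2 ± 1.38 CPM (SD, n = 3) and in *Cxcl12* KO kidneys 17.9 ± 3.27 CPM (SD, n = 5). The second mitochondrial gene that fell was *Yars2*, the tyrosine enzyme (ENSMUSG00000022792, chromosome 16 from 16302965 to 16309640). *Yars2* had 30.3, 32.0, 25.1, 32.4 and 30.0 CPM in *Myc* control 1 to 5 and 23.4, 21.0, 20.2, 22.8 and 19.4 CPM in *Myc* KO 1 to 5. *Myc* control 3 was the lowest control and still lay above all KO kidneys. The log2 fold change of *Yars2* was -0.48 (SE 0.090, edgeR adjusted p = 0.025). An exon of *Ears2* overlaps the gene *Ubfd1* on the opposite strand. Counting here ignored the strand, so reads that fit both genes are ambiguous and were assigned to neither. With the sum of the strand columns the log2 fold change of *Ears2* was also -0.81. The called genes *Farsb* and *Yars*, described below, overlap a gene on the opposite strand as well.

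Of the cytosolic genes, 8 fell. *Vars* loads valine (ENSMUSG00000007029, chromosome 17 from 35000987 to 35016322). It had 118, 118, 123, 116 and 129 CPM in *Myc* control 1 to 5 and 97.1, 87.6, 91.3, 95.0 and 89.5 CPM in *Myc* KO 1 to 5. Each group was tight and the groups lay far apart for its level, with a log2 fold change of -0.39 (SE 0.063, edgeR adjusted p = 0.014). *Farsb* is the beta subunit of the phenylalanine enzyme (ENSMUSG00000026245, chromosome 1 from 78417975 to 78488897). It had 102, 94.6, 88.1, 111 and 84.3 CPM in the controls and 67.6, 71.1, 70.9, 60.3 and 71.4 CPM in the KO kidneys, in the same order. The controls were spread more widely than the KO kidneys, and the log2 fold change was -0.49 (SE 0.087, edgeR adjusted p = 0.022). Its partner subunit *Farsa* had a log2 fold change of -0.30 and did not pass (edgeR adjusted p = 0.063).

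*Yars* loads tyrosine in the cytosol (ENSMUSG00000028811, chromosome 4 from 129189760 to 129219607). It had 93.3, 92.8, 79.7, 80.4 and 74.1 CPM in *Myc* control 1 to 5 and 68.3, 59.4, 58.5, 61.9 and 56.5 CPM in *Myc* KO 1 to 5. *Myc* KO 1 was the highest KO kidney, below the lowest control, *Myc* control 5, and the log2 fold change was -0.46 (SE 0.084, edgeR adjusted p = 0.025). Both tyrosine enzymes, *Yars* and *Yars2*, thus fell by similar amounts. *Tars* loads threonine (ENSMUSG00000022241, chromosome 15 from 11382301 to 11399665). It had 129, 112, 101, 98.7 and 96.3 CPM in the controls and 85.8, 80.5, 82.9, 78.1 and 76.9 CPM in the KO kidneys. *Myc* control 1 stood above the other controls, and the log2 fold change was -0.41 (SE 0.086, edgeR adjusted p = 0.036).

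*Gars* (ENSMUSG00000029777, chromosome 6 from 55038007 to 55079500) and *Wars*, the tryptophan enzyme (ENSMUSG00000021266, chromosome 12 from 108860030 to 108894174), passed by the narrowest margin. *Gars* had 247, 209, 177, 219 and 178 CPM in *Myc* control 1 to 5 and 158, 152, 152, 148 and 160 CPM in *Myc* KO 1 to 5. Its controls varied by far more than its KO kidneys, and *Myc* control 3 and 5 were nearest to the KO kidneys. The log2 fold change of *Gars* was -0.42 (SE 0.095, edgeR adjusted p = 0.049). *Wars* had 108, 106, 102, 99.2 and 103 CPM in the controls and 88.5, 80.8, 82.9, 91.5 and 82.5 CPM in the KO kidneys. The groups were narrow and did not overlap, and the log2 fold change was -0.28 (SE 0.063, edgeR adjusted p = 0.046).

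*Kars* and *Dars*, the lysine and aspartate enzymes, were the called genes of the multisynthetase complex. *Kars* (ENSMUSG00000031948, chromosome 8 from 111993443 to 112011323) had 96.0, 105, 107, 104 and 108 CPM in *Myc* control 1 to 5 and 88.4, 83, 81.6, 86.1 and 80.8 CPM in *Myc* KO 1 to 5. *Myc* control 1 was the low control and stayed above the KO kidneys, with a log2 fold change of -0.31 (SE 0.063, edgeR adjusted p = 0.034). A processed pseudogene, *Kars-ps1*, is annotated, so the count of *Kars* is uncertain where reads match both. *Dars* (ENSMUSG00000026356, chromosome 1 from 128363707 to 128417368) had 147, 137, 137, 155 and 121 CPM in the controls and 103, 105, 115, 99.5 and 113 CPM in the KO kidneys. *Myc* control 5 was nearest to the KO kidneys, and the log2 fold change was -0.38 (SE 0.080, edgeR adjusted p = 0.037).

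**Figure D2:**
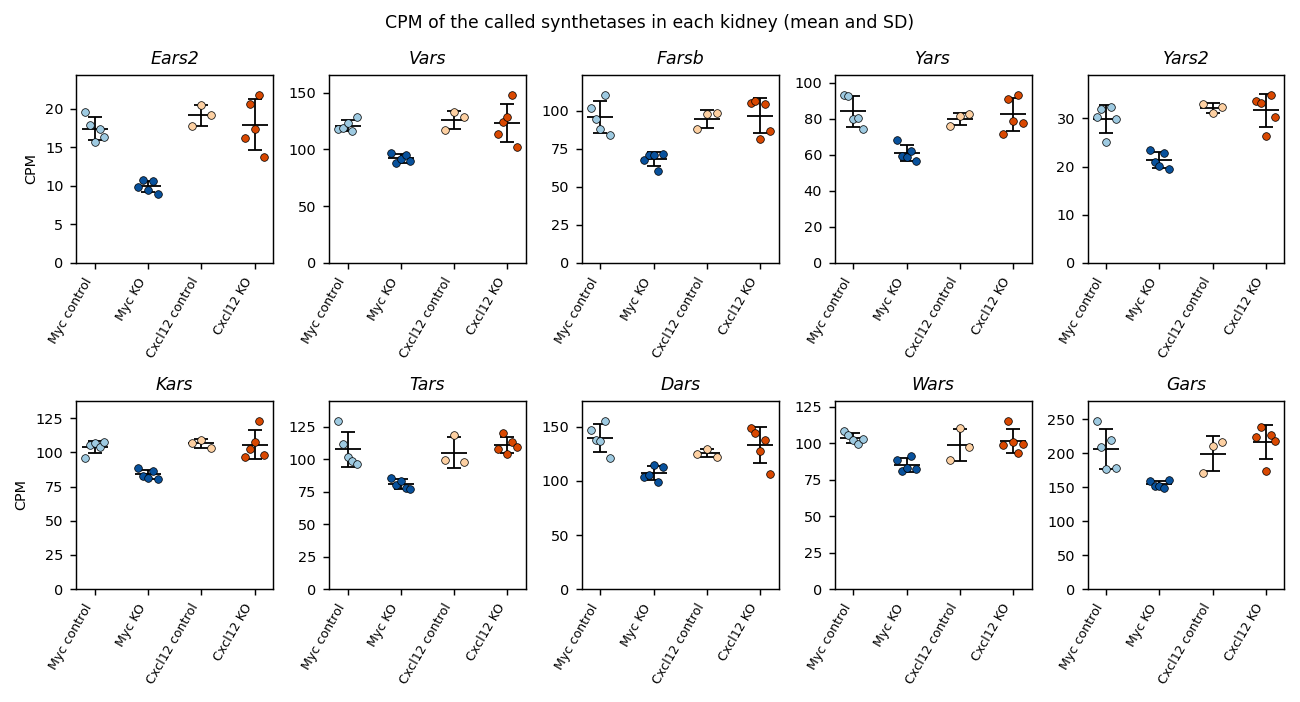
Each panel shows CPM of 1 of the 10 called synthetase genes, with a point for each kidney and the mean with SD in black, for the 4 groups on the x axis. In every panel all *Myc* KO points lie below all *Myc* control points, while the *Cxcl12* KO points overlap the *Cxcl12* control points.

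Several genes that did not pass in *Myc* KO kidneys had log2 fold changes as large as those of called genes. Among them were *Tars2* (-0.34, edgeR adjusted p = 0.070) and *Tarsl2* (-0.43, edgeR adjusted p = 0.076). The 3 of smallest p lay just outside the threshold. *Iars*, the isoleucine enzyme, had a log2 fold change of -0.47 (edgeR adjusted p = 0.050, marginally over 0.05), *Mars*, the methionine enzyme, of -0.43 (edgeR adjusted p = 0.052), and *Farsa* of -0.30 as given above. At the other end were the mitochondrial leucine enzyme *Lars2* (0.014), the glutamine enzyme *Qars* (-0.034) and the mitochondrial cysteine enzyme *Cars2* (-0.058), all in log2 units. *Lars2* was the only gene of the family with a log2 fold change above 0. Of the 8 genes of the multisynthetase complex, 2 fell and the median log2 fold change was -0.30. Of the 13 cytosolic genes outside the complex, 6 fell and the median was -0.38. In class I 5 of 18 genes fell and in class II 5 of 19. *Eprs*, which belongs to both classes, had a log2 fold change of -0.13 and did not pass (edgeR adjusted p = 0.49). Differences between these subgroups were not tested. Exons of 15 of the 38 genes overlap another gene, and of the 23 without an overlap 7 fell, with a median log2 fold change of -0.30.

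**Figure D3:**
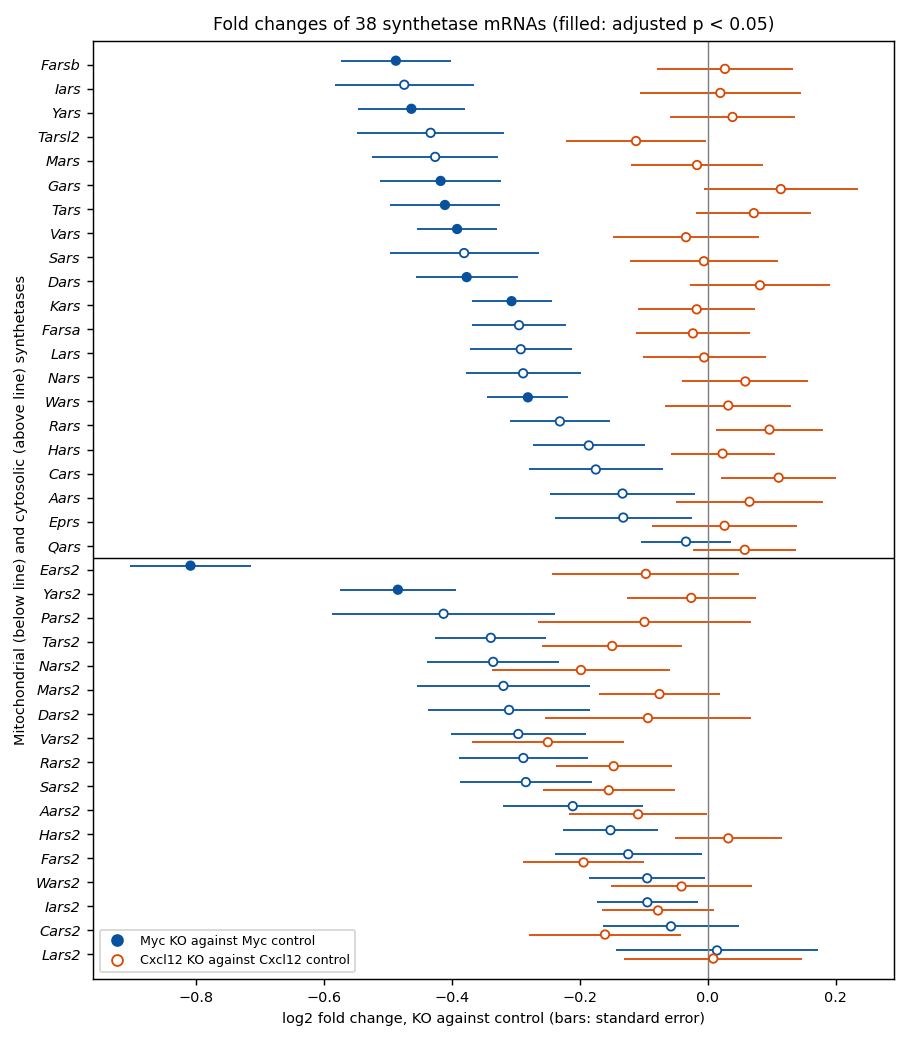
Log2 fold change (x axis, KO against control of the same cohort) of each synthetase gene (y axis), with the standard error as a bar, in blue for *Myc* KO and in orange for *Cxcl12* KO kidneys. Filled points passed an edgeR adjusted p of 0.05. The 10 filled points are all blue, from -0.81 for *Ears2* to -0.28 for *Wars*, and all orange points lie between -0.25 and 0.11.

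The promoters of 28 of the 38 genes were found in the RefSeq table for GRCm38.p6, which holds 250 bases before and 50 bases after each annotated start. The E-box CACGTG reads the same on both strands. It was present in 5 of the 28 promoters, those of *Aars*, *Ears2*, *Farsb*, *Iars* and *Tars* (17.9%), and in 8.09% of the promoters of 27025 genes. Those 27025 are all genes with a RefSeq promoter, whether or not the kidney expresses them. The following windows, from the coding strand of each gene 5′ to 3′ with the E-box in capitals, are shown because 3 of them belong to genes that fell in *Myc* KO kidneys and the other, *Iars*, lay at the threshold.
*Ears2*, chr7:122067050-122067075, minus strand: cgaaggagccCACGTGtgtgtttcta
*Farsb*, chr1:78488909-78488958, minus strand: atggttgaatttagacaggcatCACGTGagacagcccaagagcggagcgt
*Tars*, chr15:11399624-11399649, minus strand: cgcctgtggcCACGTGgcgcacgcgc
*Iars*, chr13:49682039-49682088, plus strand: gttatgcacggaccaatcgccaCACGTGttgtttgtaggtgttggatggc
The core of the amino acid response element, the sequence that ATF4 and its partners bind, was searched as TGATGNAA on both strands. It was present in 5 of the 28 promoters, those of *Aars*, *Gars*, *Iars*, *Tars* and *Yars* (17.9%), and in 4.51% of the promoters of the 27025 genes. The windows of the 3 genes that fell and of *Iars* are shown in the same way. TTTCATCA and TTGCATCA are the motif read on the other strand.
*Yars*, chr4:129189896-129189923, plus strand: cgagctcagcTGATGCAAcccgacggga
*Gars*, chr6:55037949-55038000, plus strand: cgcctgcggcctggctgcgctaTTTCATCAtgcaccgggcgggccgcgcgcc
*Tars*, chr15:11399656-11399683, minus strand: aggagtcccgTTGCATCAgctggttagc
*Iars*, chr13:49682127-49682154, plus strand: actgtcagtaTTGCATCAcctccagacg
Of the called genes with a promoter in the table, 3 of 8 held an E-box and 3 of 8 the response element core, with *Tars* in both counts. Of the genes not called, 2 of 20 held each motif, which were *Aars* and *Iars* both times. *Aars*, whose windows are not shown, held 1 E-box and 2 response element cores. Its log2 fold change in *Myc* KO kidneys was -0.13 (edgeR adjusted p = 0.51). The 2 motifs do not share letters in any of the windows shown. A match describes the letters in the window and says nothing about binding, which was not measured.

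No synthetase mRNA was called higher or lower in *Cxcl12* KO kidneys. In *Cxcl12* KO against *Cxcl12* control kidneys 0 of the 38 genes passed edgeR's test, DESeq2 or limma-voom, and 0 had an unadjusted p under 0.05. Over all 15154 genes tested, edgeR and limma-voom called 0%, DESeq2 called 2.34%, and 13% had an unadjusted edgeR p under 0.05. The median log2 fold change of the 38 genes was -0.017, with a range from -0.25 to 0.11, and 22 of the 38 lay below 0, against 49.8% of all genes. These values split by compartment. Of the 21 cytosolic genes 14 had a log2 fold change above 0 (median 0.027), and of the 17 mitochondrial genes 15 had a value below 0 (median -0.099). Standard errors of the single genes ran from 0.080 for *Qars* to 0.17 for *Pars2*. The difference between the compartments was not tested. Summed CPM was 3117, 3448 and 3484 in *Cxcl12* control 1 to 3 and 3304, 3596, 3161, 3601 and 3318 in *Cxcl12* KO 1 to 5, and the groups overlapped.

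The smallest p-values in the *Cxcl12* cohort were all in mitochondrial genes. The valine enzyme *Vars2* had 21.8, 27.0 and 24.3 CPM in *Cxcl12* control 1 to 3 and 19.1, 19.8, 19.6, 25.3 and 19.0 CPM in *Cxcl12* KO 1 to 5. *Cxcl12* KO 4 lay among the controls and the other KO kidneys below them, with a log2 fold change of -0.25 (SE 0.12, edgeR adjusted p = 0.40). The phenylalanine enzyme *Fars2* had 41.0, 38.6 and 42.9 CPM in the controls and 32.1, 32.7, 37.5, 39.9 and 37.1 CPM in the KO kidneys. *Cxcl12* KO 4 again lay within the range of the controls, and the log2 fold change was -0.19 (SE 0.094, edgeR adjusted p = 0.41). The arginine enzyme *Rars2* had 42.3, 41.1 and 41.2 CPM in the controls and 39.7, 40.2, 37.3, 38.5 and 32.1 CPM in the KO kidneys. It was the only gene of the family in which every *Cxcl12* KO kidney lay below every control kidney, an order that 4.72% of all genes showed. Its log2 fold change was -0.15 (SE 0.091, edgeR adjusted p = 0.52). In the *Myc* cohort the log2 fold changes of *Vars2*, *Fars2* and *Rars2* were -0.30, -0.12 and -0.29, and none of the 3 was called.

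Whether the KO effects differed between the cohorts was tested over all 18 kidneys, as the *Myc* effect minus the *Cxcl12* effect. By edgeR 0 of the 38 genes passed, against 0.0692% of all 15903 genes tested, and 17 of the 38 had an unadjusted p under 0.05, against 11.4% of all genes. The difference was below 0 in 35 of the 38 genes, against 51% of all genes, with a median of -0.29 log2 units. It was largest for *Ears2*, at -0.72 (SE 0.17, edgeR adjusted p = 0.080), followed by *Gars* at -0.54 (SE 0.16, edgeR adjusted p = 0.14) and *Farsb* at -0.52 (SE 0.14, edgeR adjusted p = 0.11). With limma-voom 0 genes of the family passed, against 0.0189% of all genes, and with the split by unmapped reads as a covariate or outside it 0 passed, against 0.836% and 0.283%. With DESeq2 7 passed, namely *Ears2*, *Farsb*, *Dars*, *Tars*, *Yars*, *Yars2* and *Gars*, against 1.97% of all genes. All cytosolic genes (21 of 21) had a difference below 0, with a median of -0.33, and 14 of the 17 mitochondrial genes did, with a median of -0.14.

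Paired by amino acid, the cytosolic gene had a lower log2 fold change than its mitochondrial partner in 13 of 18 pairs in *Myc* KO kidneys and in 2 of 18 in *Cxcl12* KO kidneys. *Fars2* and *Tars2* enter 2 pairs each, and the differences within pairs were not tested. *Eprs* was paired with *Ears2* only, and its proline partner *Pars2* was left out of the pairs. In *Myc* KO kidneys *Pars2* had a log2 fold change of -0.41, against -0.13 for *Eprs*. In *Cxcl12* KO kidneys the values were -0.099 and 0.026. The widest gap in *Myc* KO kidneys ran the other way and belonged to the glutamate enzymes, with -0.13 for *Eprs* and -0.81 for *Ears2*. The next were those of isoleucine, with -0.47 for *Iars* and -0.095 for *Iars2*, and of phenylalanine, with -0.49 for *Farsb* and -0.12 for *Fars2*. For leucine the values were -0.29 for *Lars* and 0.014 for *Lars2*.

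**Figure D4:**
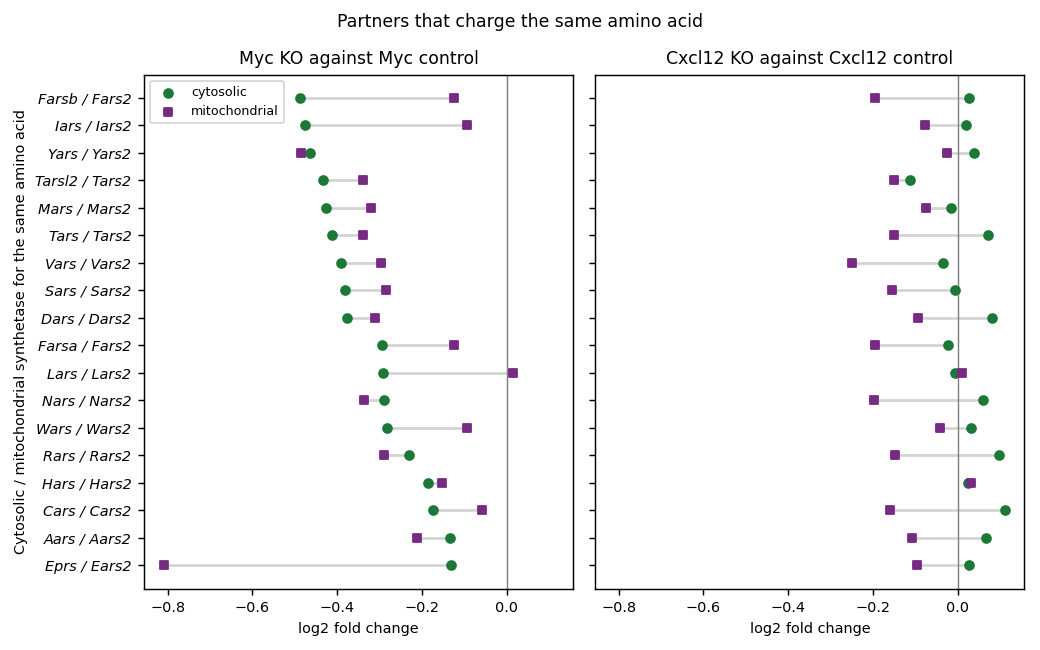
Log2 fold change (x axis) of the cytosolic (green circles) and mitochondrial (purple squares) synthetase for the same amino acid, joined by a grey line, in *Myc* KO (left) and *Cxcl12* KO kidneys (right). On the left the circle lies left of the square in 13 of 18 pairs, and *Ears2* stands apart at -0.81. On the right the circle lies left of the square in 2 of 18 pairs.

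Other genes around the synthetases were read from lists chosen by function. Of the 3 scaffold proteins of the multisynthetase complex, 2 fell in *Myc* KO kidneys, against 1.29% of all genes. *Aimp2* went from 20.3 ± 2.12 to 13.0 ± 2.17 CPM (SD, n = 5 each), a log2 fold change of -0.65 (edgeR adjusted p = 0.028), and *Eef1e1* from 42.0 ± 4.98 to 26.8 ± 2.96 CPM (SD, n = 5 each), a log2 fold change of -0.65 (edgeR adjusted p = 0.014). Both log2 fold changes were larger in size than that of any synthetase of the complex. Among 15 genes that act on the ends of tRNAs or export them, 3 fell, against the same 1.29%, and 14 had a log2 fold change below 0. They were *Rpp38* (-0.77, edgeR adjusted p = 0.019) and *Rpp14* (-0.48, edgeR adjusted p = 0.034), subunits of RNase P, which cuts the 5′ end, and *Elac2* (-0.36, edgeR adjusted p = 0.048), which cuts the 3′ end.

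The helpers of charging and editing, which include the mitochondrial amidotransferase genes *Qrsl1*, *Gatb* and *Gatc*, had 0 of 11 genes called, with a median log2 fold change of -0.25 and 10 below 0. The list of RNA polymerase III, which transcribes tRNAs, had 0 of 15 called and a median of -0.11. Beside the polymerase it holds the factors *Brf1*, *Brf2* and *Bdp1* and the repressor *Maf1*. The elongation factors, some of which bring loaded tRNAs to the ribosome, had 0 of 9 called, all 9 below 0 and a median of -0.21. The amino acid stress response, the ATF4 pathway, had members on both sides: 6 of 18 genes lay below 0, the median was 0.10, and 1 gene fell, *Phgdh* (-0.70, edgeR adjusted p = 0.038), the first enzyme of serine synthesis. Of 6 interferon-induced genes 0 were called. Over all genes, 21.9% had an unadjusted edgeR p under 0.05. Among the lists the numbers were 3 of 3 scaffold genes, 10 of 15 genes of tRNA ends and export, and 6 of 11 helpers. They were 5 of 15 for the polymerase list, 4 of 9 for elongation factors, 6 of 18 for stress response genes and 0 of 6 for interferon-induced genes. The 6 stress response genes went both ways: *Asns* (-0.63), *Atf5* (-0.51), *Psat1* (-0.44), *Phgdh* (-0.70) and *Slc3a2* (-0.23) had log2 fold changes below 0, and *Eif2ak3* had 0.23. In *Cxcl12* KO kidneys edgeR called 0 genes of any of these lists, and 5 of the 18 stress response genes had an unadjusted p under 0.05, against 13% of all genes, with a median log2 fold change of 0.16 over the 18.

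Markers of kidney cell types were read beside these results. In the *Myc* cohort edgeR called 0 markers of any type. The 6 proximal tubule markers summed to 3418 to 4110 CPM in *Myc* control and 3163 to 4872 CPM in *Myc* KO kidneys. Of their log2 fold changes, 5 of 6 were above 0. The 4 injured tubule markers summed to 2586 to 3386 CPM in control and 2858 to 3345 CPM in KO kidneys, with 3 of 4 log2 fold changes below 0. *Havcr1*, the injury marker KIM-1, was at 206 to 901 CPM in control and 72.7 to 275 CPM in KO kidneys, a log2 fold change of -1.32 (edgeR unadjusted p = 0.0092, adjusted p = 0.12), and all 5 KO kidneys lay below the control mean. *Lcn2*, the injury marker NGAL, had a log2 fold change of 0.39 (edgeR adjusted p = 0.27). The 4 neutrophil markers, at 39.6 to 205 CPM in control and 123 to 234 CPM in KO kidneys, had 4 of 4 log2 fold changes above 0, as had the 4 podocyte markers, at 322 to 554 CPM and 493 to 613 CPM. At an unadjusted edgeR p under 0.05 were 1 of 6 proximal tubule, 1 of 4 injured tubule, 0 of 4 neutrophil and 2 of 4 podocyte markers, against 21.9% of all genes. Markers of the loop, distal tubule and collecting duct (0 of 6), endothelium (2 of 5), stroma (1 of 4) and leukocytes (2 of 5) are counted in the same way. Summed ranges of control and KO kidneys overlapped in every type tested. The part of cell composition in the lower synthetase mRNA was not tested.

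In the *Cxcl12* cohort edgeR also called 0 markers, but several summed ranges did not overlap. Proximal tubule markers summed to 4276 to 4941 CPM in control and 3637 to 4032 CPM in KO kidneys, with 6 of 6 log2 fold changes below 0 (median -0.32). Injured tubule markers summed to 1613 to 2440 CPM in control and 2590 to 3146 CPM in KO kidneys (median 0.54). Neutrophil markers summed to 17.1 to 23.4 CPM in control and 26.8 to 118 CPM in KO kidneys (median 1.70). At an unadjusted edgeR p under 0.05 were 3 of 6, 2 of 4 and 4 of 4 of these markers, against 13% of all genes. The other types had 1 of 6 (loop, distal tubule and collecting duct), 0 of 4 (podocyte), 1 of 5 (endothelium), 1 of 4 (stroma) and 2 of 5 (leukocyte). These values moved in the cohort in which mitochondrial synthetases lay mostly below 0 and cytosolic synthetases mostly above 0, and their part in that split was not tested. T and B cell markers summed to at most 1.56 CPM in any kidney and were not tested.

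The lower synthetase mRNA in *Myc* KO kidneys was present on both sides of the split by unmapped reads. The median log2 fold change of the 38 genes was -0.33 inside the 6 kidneys (2 *Myc* KO against 2 *Myc* control), with 36 of 38 genes below 0, and -0.29 outside them (3 against 3), with 34 of 38 below 0. No gene of the family passed edgeR's test in either subset (0 of 38), where over all genes 0 passed inside and 0.0266% fell outside. *Ears2* had a log2 fold change of -0.93 inside and -0.71 outside (edgeR adjusted p = 0.58 and 0.056). With the split as a covariate in all 10 kidneys, 16 of the 38 genes fell, against 3.96% of all genes. In the *Cxcl12* cohort no control kidney is inside, and outside the median log2 fold change was -0.072. There 0 of the 38 genes passed, against 0.535% of all genes, and 0 passed with the split as a covariate, against 0.812%.

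The number of called synthetases depended on single kidneys, while the sign of the median of the family did not. It was 1 without *Myc* KO 2, *Myc* KO 3 or *Myc* control 2, 2 without *Myc* KO 4, 3 without *Myc* KO 5, 4 without *Myc* control 4, 6 without *Myc* control 5, 8 without *Myc* control 1, 9 without *Myc* KO 1 and 14 without *Myc* control 3. The share of all genes that fell moved with it. It was 0.113%, 0.152% and 0.172% without *Myc* KO 2, *Myc* KO 3 and *Myc* control 2, 0.29% without *Myc* KO 4, 0.398% without *Myc* KO 5 and 0.487% without *Myc* control 4. It was 0.568% without *Myc* control 5, 1.31% without *Myc* control 1, 1.1% without *Myc* KO 1 and 2.94% without *Myc* control 3. Without 1 kidney the median log2 fold change of the family ran from -0.33 to -0.28. *Ears2* passed in all 10 of these fits, with log2 fold changes from -0.85 to -0.76, *Vars* in 7, *Farsb* in 6, and *Wars* and *Gars* in 1 each.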

How the data were processed

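For each of the 18 kidneys the authors deposited a table of raw counts, neither normalized nor filtered. Per the labels and the study's methods, reads were trimmed with Trimmomatic 0.32 and aligned to GRCm38 and counted with STAR 2.4.0. The column that ignores the strand was used. Of the reads, 29.4% to 32.6% per kidney were assigned to no gene (unmapped, in several places, outside genes or ambiguous) and stayed out of all sizes. Gene names and positions were taken from GENCODE vM21 for GRCm38, which named 45143 of the 45706 genes, and promoters from RefSeq for GRCm38.p6.

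Each cohort was fitted alone in edgeR 4.0.16 (R 4.3.3) by its quasi-likelihood F-test, after filterByExpr and TMM, and the difference between the KO effects was fitted over all 18 kidneys. The Benjamini-Hochberg adjustment ran over all genes tested, and a gene was called at an adjusted p under 0.05. The standard error is the log2 fold change divided by the root of F. CPM values are TMM-scaled over all kidneys. Kidneys were grouped by genotype label. The replicate numbers of the labels were not taken as pairs. Alternatives were DESeq2 1.42.0, limma-voom (limma 3.58.1), other size factors, no filter, the sum of the strand columns, the split by unmapped reads, a replicate block and leaving out each kidney. The comparison inside the split was added after seeing the data. The fits were tested on simulated data.

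The members, lists and alternatives were chosen with earlier results of these data known. Values per kidney are given for genes called in a cohort and for the smallest p-values of each cohort (4 for *Myc* and 3 for *Cxcl12*). Other genes serve as examples of their groups. *Iars*, *Mars*, *Farsa*, *Tars2*, *Tarsl2*, *Lars2*, *Qars*, *Cars2*, *Havcr1*, *Lcn2* and the stress response genes were named after their values were seen. Tables and figures used Python 3.11.15, pandas 2.3.3, numpy 2.4.6 and matplotlib 3.10.9. Counting error is larger for genes of few reads.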

Additional observations from a re-analysis of the deposited data

Results flagged for a closer look

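Over 42 sets of 5 kidneys, each a group's values of a synthetase described per kidney or of the summed CPM, 1 kidney stood apart from the others of its group. *Vars2* had 25.3 CPM in *Cxcl12* KO 4, against 19.8 CPM in the next highest and 19.0 CPM in the lowest *Cxcl12* KO kidney. The gap made up 0.881 of the range of the group. Chance alone sets a kidney apart in about 1 of 20 such sets.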

How the results depend on the processing

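The number of synthetases called in *Myc* KO kidneys, 10 by edgeR, was 19 with DESeq2 (against 4.35% of all genes), 16 with the split by unmapped reads as a covariate, 0 outside and 0 inside that split, and 1, *Ears2*, with a replicate block. It was 8 with limma-voom, 8 with DESeq2 size factors, 7 without a filter and 10 with the summed strand columns, and from 1 to 14 when 1 kidney was left out. Over all genes, DESeq2 called 1139, the covariate 954, the block 18, limma-voom 215, DESeq2 size factors 242, no filter 220 and the summed strand columns 263, against 246. The block rests on replicate numbers not shown to pair the kidneys: deviations of equally numbered KO and control kidneys correlated at -0.21 to 0.4 for *Myc* and -0.032 to 0.13 for *Cxcl12*, and 0 of 5 *Myc* and 2 of 3 *Cxcl12* control kidneys correlated best with the KO kidney of their own number. The subsets hold 6 and 4 kidneys. The median log2 fold change of the family stayed between -0.33 and -0.28 in all 19 alternatives of the *Myc* cohort, and all 247 log2 fold changes of the 13 genes with values per kidney stayed below 0. *Ears2* passed in 17 of 19 alternatives, and the cause of its loss in the 2 subsets was not tested. In the *Cxcl12* cohort 0 were called in all 16 alternatives. Its median moved from -0.017 to -0.072 outside the split, and it ran from -0.049 to 0.0059 when 1 kidney was left out. For the difference between the KO effects, 7 were called with DESeq2 and 0 in the other 25 alternatives. With a replicate block the medians were -0.30 (*Myc*) and -0.034 (*Cxcl12*). *Pars2* rests on 46 to 144 reads per kidney, which limits its precision.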

Other observations

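The lists around the synthetases had these values in *Cxcl12* KO kidneys. The helpers of charging and editing had 10 of 11 log2 fold changes below 0, with a median of -0.14 and 1 gene at an unadjusted edgeR p under 0.05. Their summed CPM was 383 to 430 in *Cxcl12* control and 311 to 388 in *Cxcl12* KO kidneys. The RNA polymerase III list had 10 of 15 log2 fold changes above 0, with a median of 0.035, and 0 genes at an unadjusted p under 0.05. The genes of tRNA ends and export had 8 of 15 below 0 and a median of -0.024. *Elac2*, which had fallen in *Myc* KO kidneys, had a log2 fold change of -0.18 (edgeR adjusted p = 0.37). Every *Cxcl12* KO kidney lay below every control kidney for *Elac2*, an order that 4.72% of all genes showed. The scaffold genes *Aimp1*, *Aimp2* and *Eef1e1* had log2 fold changes of -0.064, -0.0026 and 0.068. For *Eef1e1* the *Myc* effect minus the *Cxcl12* effect was -0.72 log2 units (edgeR adjusted p = 0.064).

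The serine enzyme *Psat1*, of the amino acid stress list, had a log2 fold change of -0.44 in *Myc* KO (edgeR adjusted p = 0.11) and of 0.42 in *Cxcl12* KO kidneys (edgeR adjusted p = 0.32). The difference between the KO effects was -0.87 log2 units (edgeR adjusted p = 0.096). It was singled out after its values were seen.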
